A study of Mus musculus with 52 samples.

Results

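The comparison set the white fat around the gonads of female Q20 mice against that of male Q20 mice, across all microRNA (miRNA) precursors in the deposited count table. Its members were defined by genotype and sex labels, and they were chosen with earlier results of these data known. The labels gave 4 female libraries (Q20_F) and 4 male libraries (Q20_M), 8 of the 52 libraries of the series. All 8 came from C57BL/6 mice aged 6 months that were heterozygous for a knock-in huntingtin allele with a labelled CAG length of 20, and all were housed with wild-type and other Q20 mice. The other 44 libraries, 21 female and 23 male, came from wild-type (WT) mice of the same strain and age and from heterozygous mice with knock-in alleles named Q80, Q92, Q111, Q140 and Q175. The labels name the tissue only as white fat around the gonad. In a female mouse that depot lies around the ovary and in a male along the epididymis, so that sex and depot cannot be told apart in any of these values. Each Q20 library's description carries an identifier of its own, but the labels do not say whether it stands for an animal, and if it does not, the p-values measure only the spread between these libraries.

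A miRNA is cut from a hairpin precursor RNA and, loaded into an Argonaute protein, represses messenger RNAs that hold sites matching its seed. White fat stores triglyceride and secretes hormones such as leptin and adiponectin, and the gonadal depots are among the largest visceral fat pads of the mouse, with sex-dependent growth and hormone response. The Q20 allele has a repeat length in the normal range and serves as a knock-in control for the expanded alleles that model Huntington's disease. The files identify each precursor by its miRBase accession alone, and no source used here pairs these accessions with miRNA names (0 were matched). No precursor is therefore given a name, a role or a sequence, the tissue could not be checked against marker miRNAs, and each fit has at most 4 accessions printed, 2 for each direction.

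Library totals ran from 3377220 to 4188904 estimated counts in Q20 females and from 2896498 to 4761640 in Q20 males, with means of 3770678 ± 365443 and 3614389 ± 836125 (SD, n = 4 each). These totals did not differ beyond the spread (exact permutation test, two-sided, p = 0.771, where 4 against 4 can give no p under 0.0286). Male replicate 2, described next, had the highest total, and the other 3 males averaged 3231972 ± 413764 (SD, n = 3, exact permutation p = 0.171 against females). Of the 1187 precursors in the table, 813 had a count in at least 1 Q20 library. The number with a count per library was 556.5 ± 15.0 in females and 529 ± 19.8 in males (SD, n = 4 each, exact permutation p = 0.143), and 524 ± 21.0 in the 3 males (SD, n = 3, exact permutation p = 0.171).

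The library labelled Q20_M replicate 2 stood apart from the other 7, and the main counts and levels are given with and without it. On log2 CPM (counts scaled to library size with the trimmed-mean TMM factors of edgeR), its Pearson correlations with the other males ran from 0.925 to 0.933. The 4 females correlated with each other at 0.988 to 0.993 and the other 3 males at 0.990 to 0.993, while females and these 3 males correlated at 0.973 to 0.981. A precursor that took 9.85% to 19.3% of counts in the other 7 libraries took 42.3% in this library, whose TMM factor was 0.653 against 0.990 to 1.14 in the others. Principal component 1, with 52.4% of the variance, held the library at 19.3 and the other 7 between -5.55 and -0.125. Component 2, with 26.2%, separated the sexes, with females at 4.70 to 5.55 and males at -6.44 to -3.37.

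**Figure D1:**
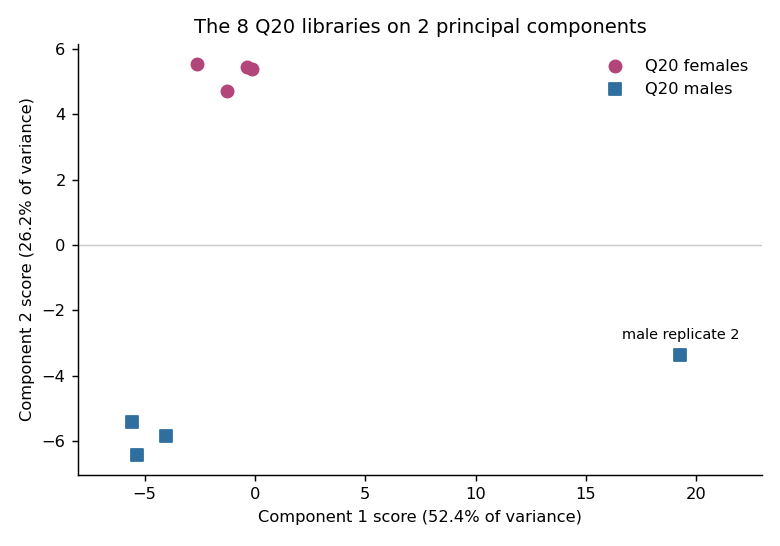
Scores of the 4 female (circles) and 4 male (squares) Q20 libraries on principal components 1 and 2 of log2 CPM, in score units, each point a library. Component 1 sets male replicate 2 (19.3) apart from the rest (at most -0.125), and the sexes lie on opposite sides of 0 on component 2.

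In Q20 fat, 14 of the 297 precursors tested differed between females and males, 4.71% of those tested. Of these, 7 were higher in females (2.36%) and 7 were lower in females (2.36%), by edgeR's quasi-likelihood test with Benjamini-Hochberg adjustment over all 297 and a threshold of 0.05. At an unadjusted p under 0.05 there were 46. The median log2 fold change of females over males across the 297 was -0.04, and the median of its absolute size was 0.25. The groups did not overlap in any of the 14. For 4 of the 7 higher calls the count filter was passed only through the females, as given below, so the lack of overlap adds nothing for them. Over all 297, every female lay above every male in 17 precursors (5.72%) and below every male in 16 (5.39%), or in 33 (11.1%) and 29 (9.76%) with male replicate 2 left out. In bulk tissue, fewer cells of a type and less RNA per cell cannot be told apart, and this holds for each difference below.

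The count of calls depended on single libraries. Without male replicate 2, 35 of 294 precursors were called (11.9%), 22 higher in females (7.48%) and 13 lower (4.42%). These held all 14 calls made with the library, each with the same sign. Without female replicate 3 or without female replicate 4, edgeR called 0, with 28 and 40 precursors at an unadjusted p under 0.05. On RPKM values, which are scaled to the library total, limma called 11 higher and 2 lower, and the median log2 difference of all 297 precursors was itself 0.26, against 0.07 without male replicate 2.

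The 7 precursors higher in females were mostly of low level. In 4 of them the mean lay under 10 CPM, with female libraries between 2.70 and 8.41 CPM and male libraries between 0.307 and 1.93 CPM. The log2 fold changes of these 4 ran from 1.51 to 3.35. They rest on few reads, since 3 counts correspond to 0.630 to 1.04 CPM in the Q20 libraries, and part of the male values lies at or under that level. Each of the 4 passed the minimum of 10 counts only through the females, which held at least 11 counts against at most 7 in any male, so they could be tested only because the females were the higher group. The other 3 higher precursors and all 7 lower ones had at least 10 counts in every Q20 library. The 3 include the pair named next.

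MI0014039, from a 60 nucleotide precursor, had 13.4, 19.8, 18.4 and 18.7 CPM in Q20_F replicates 1 to 4, against 4.61, 7.08, 6.29 and 5.20 CPM in Q20_M replicates 1 to 4. All females lay above all males, and male replicate 2 was the highest male. The means were 17.6 ± 2.86 CPM in females and 5.79 ± 1.10 CPM in males (SD, n = 4 each), 3.02-fold higher in females, a log2 fold change of 1.59 (SE 0.26, edgeR adjusted p = 0.0103). The log2 fold change was 1.74 without male replicate 2 (edgeR adjusted p = 0.00136).

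MI0000246, from a 76 nucleotide precursor, had 856, 1313, 1451 and 1632 CPM in Q20_F replicates 1 to 4, against 650.1, 493, 627 and 653 CPM in Q20_M replicates 1 to 4. The lowest female still exceeded the highest male, and male replicate 2 was the lowest male, apart from the other 3. The means were 1313 ± 332 CPM in females and 606 ± 75.9 CPM in males (SD, n = 4 each), 2.17-fold higher in females, a log2 fold change of 1.12 (SE 0.21, edgeR adjusted p = 0.0117). It was 1.06 without male replicate 2 (edgeR adjusted p = 0.00684).

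The 7 precursors lower in females had higher levels, with means from 66.0 to 15427 CPM and log2 decreases of 0.74 to 1.81 in size. An identical set accounts for 2 of the 7: the 2 precursors had the same value in every library, so that reads shared between near-identical copies may have been split between them, and these calls are uncertain as separate calls.

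MI0014103, from a 90 nucleotide precursor, fell to 3774, 5859, 3385 and 2908 CPM in Q20_F replicates 1 to 4, against 7897, 25621, 11747 and 10511 CPM in Q20_M replicates 1 to 4. The highest female stayed below the lowest male, and male replicate 2 was the highest of all 8. The means were 3982 ± 1301 CPM in females and 13944 ± 7948 CPM in males (SD, n = 4 each), a log2 fold change of -1.81 (SE 0.39, edgeR adjusted p = 0.0333). It was -1.29 without male replicate 2 (edgeR adjusted p = 0.00343).

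MI0000168, from a 66 nucleotide precursor, fell to 58.6, 71.9, 76.9 and 72.5 CPM in Q20_F replicates 1 to 4, against 198, 90.1, 270.2 and 230.4 CPM in Q20_M replicates 1 to 4. The groups did not overlap, although male replicate 2 lay close to the highest female. The means were 70.0 ± 7.89 CPM in females and 197 ± 77.3 CPM in males (SD, n = 4 each), a log2 fold change of -1.49 (SE 0.29, edgeR adjusted p = 0.0146). Without male replicate 2 it was -1.69 (edgeR adjusted p = 2.53e-05).

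Leaving out replicate libraries in turn, MI0014039 kept its call in 6 of 8 fits, MI0000246 in 5 of 8, and MI0014103 and MI0000168 in 2 of 8 each, with the sign kept in every fit. The Q20 column headers carry a token, L1 or L3, which was read as the sequencing lane although no label says what it stands for. By this reading, female replicates 1 to 3 and male replicates 3 and 4 are in lane 3 and the other 3 libraries in lane 1. In lane 3 the female minus male difference of mean log2(CPM + 1) was 1.42 for MI0014039 and 0.88 for MI0000246, and -1.40 for MI0014103 and -1.85 for MI0000168. In lane 1, with 1 female and 2 males, the same differences were 1.55, 1.53, -2.29 and -0.87 in that order of precursors. With the lane as a covariate, edgeR no longer called MI0014103 (log2 fold change -1.76, adjusted p = 0.097), and the other 3 kept their calls. Lane 3 alone gave 16 calls of 278 tested (8 higher, 8 lower), of which 8 were among the 14.

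**Figure D2:**
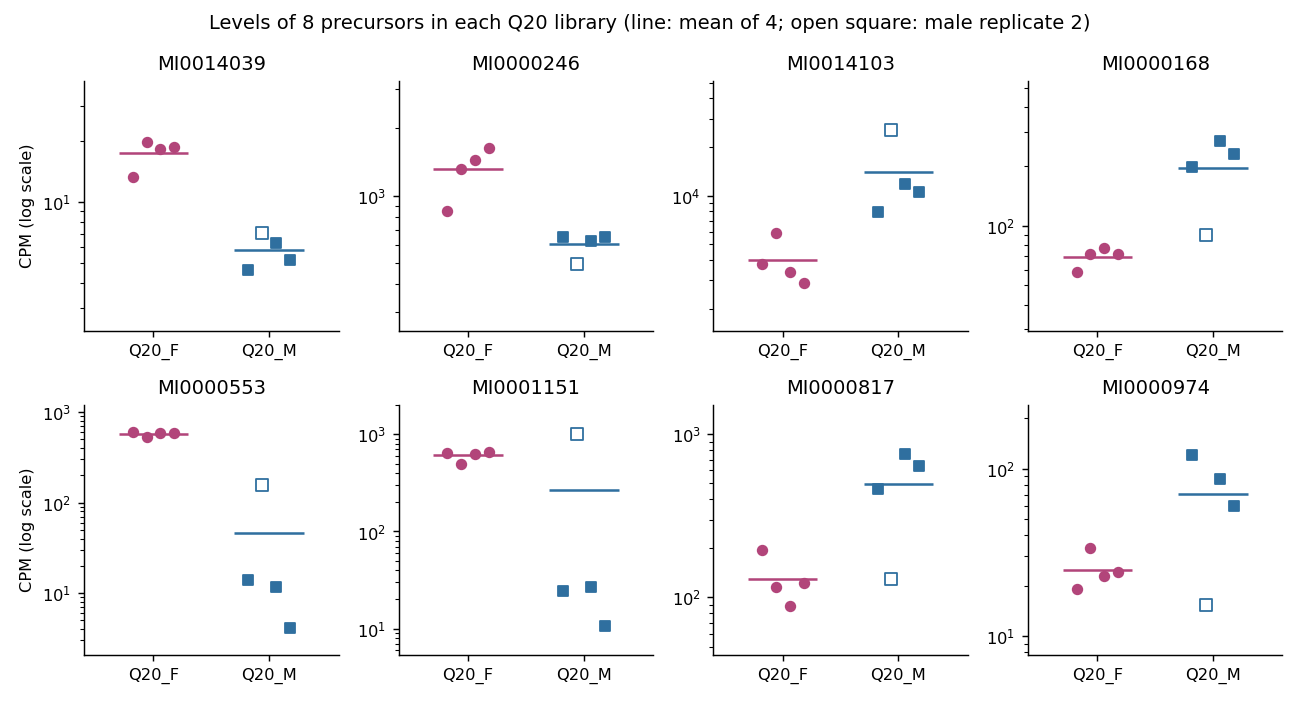
CPM (log scale) of 8 precursors in each Q20 library, females left and males right, with lines at the means of 4 and an open square for male replicate 2. In the upper row the sexes do not overlap. In the lower row the open square lies apart from the other 3 males, at 155 CPM for MI0000553 and 1006 CPM for MI0001151.

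Without male replicate 2, the largest differences among precursors of at least 10 CPM belonged to 4 that edgeR did not call in the fit of all 8. They were chosen after their values were seen. With all 8 Q20 libraries kept, DESeq2 called MI0000817 and MI0000974 (adjusted p = 0.000231 and 0.018), edgeR over all 52 libraries called MI0000817 and MI0000553 (adjusted p = 0.012 and 0.0418), and limma on log2(RPKM + 1) called MI0000553 (adjusted p = 0.0211). In that DESeq2 fit, MI0000553 and MI0001151 were left without an adjusted p. The edgeR fit with a minimum of 50 counts called MI0000817 (adjusted p = 0.0499). MI0000553, from an 85 nucleotide precursor, had 601, 527, 587 and 587 CPM in Q20_F replicates 1 to 4, against 13.8, 155, 11.8 and 4.16 CPM in Q20_M replicates 1 to 4. The females spanned a narrow range, all males lay below it, and male replicate 2 lay between the sexes. Its mean in females was 576 ± 33.0 CPM (SD, n = 4) and in the 3 other males 9.91 ± 5.089 CPM (SD, n = 3). The log2 fold change was 3.64 with all 8 libraries (SE 1.21, edgeR adjusted p = 0.201) and 5.87 without replicate 2 (SE 0.33, edgeR adjusted p = 8.83e-07), a 58.5-fold higher level in females.

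MI0001151, also from an 85 nucleotide precursor, had 647, 495, 626 and 656 CPM in Q20_F replicates 1 to 4, against 24.3, 1006, 27.1 and 10.7 CPM in Q20_M replicates 1 to 4. Here male replicate 2 exceeded every female, while the other 3 males lay far below them. Its log2 fold change was 1.18 with all 8 libraries (SE 1.49, edgeR adjusted p = 0.753) and 4.90 without replicate 2 (SE 0.30, edgeR adjusted p = 1.07e-06).

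MI0000817, from a 98 nucleotide precursor, had 194.4, 116, 88.9 and 122 CPM in Q20_F replicates 1 to 4, against 459, 130.3, 758 and 642 CPM in Q20_M replicates 1 to 4. Male replicate 2 lay inside the female range and the other 3 males above it. The log2 fold change was -1.93 with all 8 libraries (SE 0.52, edgeR adjusted p = 0.0824) and -2.20 without replicate 2 (SE 0.25, edgeR adjusted p = 0.000309).

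MI0000974, from a 112 nucleotide precursor, had 19.2, 33.6, 22.9 and 24.3 CPM in Q20_F replicates 1 to 4, against 121, 15.4, 86.7 and 59.6 CPM in Q20_M replicates 1 to 4. Male replicate 2 was the lowest of all 8 libraries. Its log2 fold change was -1.50 with all 8 libraries (SE 0.53, edgeR adjusted p = 0.195) and -1.81 without replicate 2 (SE 0.27, edgeR adjusted p = 0.0017).

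Of the 21 precursors called only without male replicate 2, that library lay outside the range of the other 3 males in 18. It lay beyond the female values in 9 and inside the female range in 3. The 21 were picked by leaving that library out, so its place apart from the other males is partly built in. The same counts were not taken over all precursors tested, and these figures are a description only. The 22 higher calls of the 7-library fit ran from 0.46 to 5.87 on the log2 scale, with 5 of them under 10 CPM and 5 over 1000 CPM. Its 13 lower calls ran from 0.48 to 2.20 in size, with none under 10 CPM and 4 over 1000 CPM. Fits with DESeq2 gave 24 calls with all 8 libraries (8.08%), 11 higher (3.7%) and 13 lower (4.38%), and 44 without replicate 2 (15.0%), 24 higher (8.16%) and 20 lower (6.8%). These shares are of all precursors fitted, including any that DESeq2 left without an adjusted p.

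**Figure D3:**
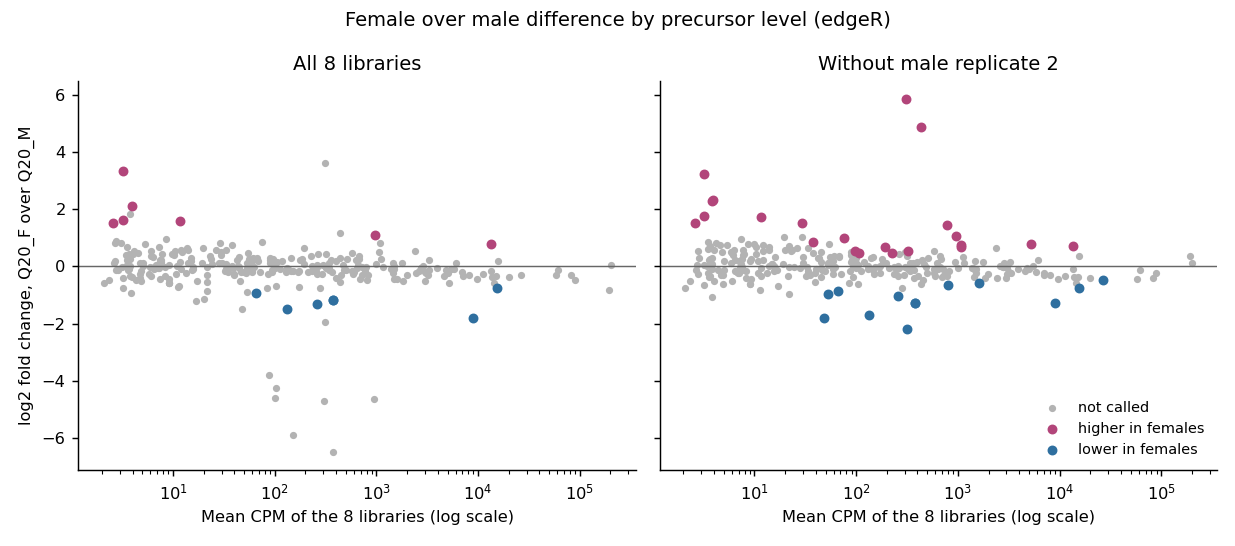
The log2 fold change of Q20 females over Q20 males (vertical) against the mean CPM of the 8 libraries (horizontal, log scale), each point a tested precursor. Coloured points passed edgeR's test: 14 with all libraries (left) and 35 without male replicate 2 (right). The points below -3 on the left are not called, and no point lies there on the right.

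The most abundant precursors did not pass the test. None of the 5 that took the most counts was called by edgeR, with log2 fold changes of -0.82 to 0.07 and a lowest adjusted p of 0.345, or -0.40 to 0.35 and 0.0922 without male replicate 2. A joint share was also taken of each library's own 5 largest precursors, which can differ between libraries. It was 61.0% ± 1.89 of counts in females and 61.5% ± 8.01 in males (SD, n = 4 each, exact permutation p = 0.971). In male replicate 2 the share was 73.3%, and in the other 3 males 57.6% ± 1.85 (SD, n = 3, exact permutation p = 0.114 against females). By level, 4 of 73 tested precursors between 1 and 10 CPM were called, 2 of 88 between 10 and 100, 5 of 80 between 100 and 1000, 1 of 40 between 1000 and 10000 and 2 of 16 above that. In the fit without male replicate 2 the same levels gave 5 of 70, 8 of 88, 14 of 80, 5 of 40 and 3 of 16.

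No precursor was present in all libraries of one sex and undetected in the other: 0 had at least 3 counts in each library of a sex and 0 counts in every library of the other. Some counts appeared in females only for 85 precursors, with at most 7 in a library, and in males only for 90, with at most 13. With male replicate 2 left out, these were 114 in females only, with at most 15 counts, and 64 in males only, with at most 13, and again 0 precursors separated the sexes in full.

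The spread between libraries was wider in males, and this rested on replicate 2. The median SD of log2 CPM over the 297 precursors was 0.249 in females and 0.364 in males, and the male SD was the larger in 209 precursors (70.4%). Without male replicate 2 the medians were 0.249 in females and 0.254 in males, with the male SD larger in 148 (49.8%). An SD above 1 was found for 2 precursors in females and 22 in males, and for 2 in males without replicate 2.

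A set of 25 precursors reached at least 10 CPM in male replicate 2 and at least 4 times the level of every other Q20 library. The ratio to the next library ran from 4.78 to 269, with a median of 66.0. No precursor lay as far below the others in that library, and the same search gave 1 precursor in male replicate 4 and 0 in the other 6 libraries. Together the 25 took 1.10% of counts in male replicate 2, against 0.0137% to 0.0213% in the other 7. Of these 25, 9 passed the filter for the test and edgeR called 0 of them. Since they were chosen by that library's values, these figures describe it and test nothing.

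The same 25 precursors also varied between libraries of the other genotypes. They took 0.0157% to 0.859% of counts there in females (median 0.0238%, n = 21) and 0.0174% to 5.43% in males (median 0.219%, n = 23). The highest female was the library labelled Q140_F replicate 2, and the next female held 0.0626%. More than 10 times the highest of the other 7 Q20 libraries was found in 1 female and 12 male libraries. Whether RNA of another tissue, or another feature of the libraries, moved with this set was not tested, since no marker miRNA could be matched.

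The other genotypes asked whether the female over male differences of Q20 also appeared in libraries that had no part in choosing them. Over the 44 libraries outside Q20, with genotype as a covariate, 178 of 387 precursors were called (46.0%), 82 higher in females (21.2%) and 96 lower (24.8%). All 14 Q20 calls were called there with the same sign, which is 100% of the Q20 calls and 11.2% of the 125 outside calls that were also tested in Q20. The 14 include 4 that passed the Q20 filter only through the females, and so could only be called higher there. The other 3 higher and all 7 lower calls had at least 10 counts in every Q20 library. Without Q20 male replicate 2, 31 of the 35 Q20 calls were called outside with the same sign, 88.6% of them and 25.2% of 123. Precursors are not independent of each other, and 125 of the 297 tested in Q20 were called outside in all. Replicate 2 of the Q140 females and replicate 4 of the Q140 males held 0.859% and 0.0216% of their counts in the 25 precursors above, and without both the 44-library fit called 202 (86 higher, 116 lower).

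Of the 125 precursors called outside, 113 had the same sign in Q20 (90.4%), beside 75.8% of all 297. The 73 higher in females outside had a median log2 fold change of 0.41 in Q20 and 0.55 outside, and 63 of them had the same sign in Q20. The 52 lower in females outside had medians of -0.50 in Q20 and -0.56 outside, and 50 had the same sign. Without Q20 male replicate 2, the median of the lower ones in Q20 was -0.27 with 41 of 52 of the same sign, and that of the higher ones 0.57 with 67 of 71. Across 297 precursors the log2 fold changes in Q20 and outside correlated with Pearson 0.874 and Spearman 0.702, and across 294 without replicate 2 with 0.498 and 0.644. These are descriptions across precursors that share libraries, scaling and depth. Some precursors with large values on both sides owed their Q20 value to male replicate 2. A precursor not called in Q20 had -6.51 in Q20 and -6.05 outside, but -0.42 in Q20 without that library. How far such precursors set the Pearson values was not tested.

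**Figure D4:**
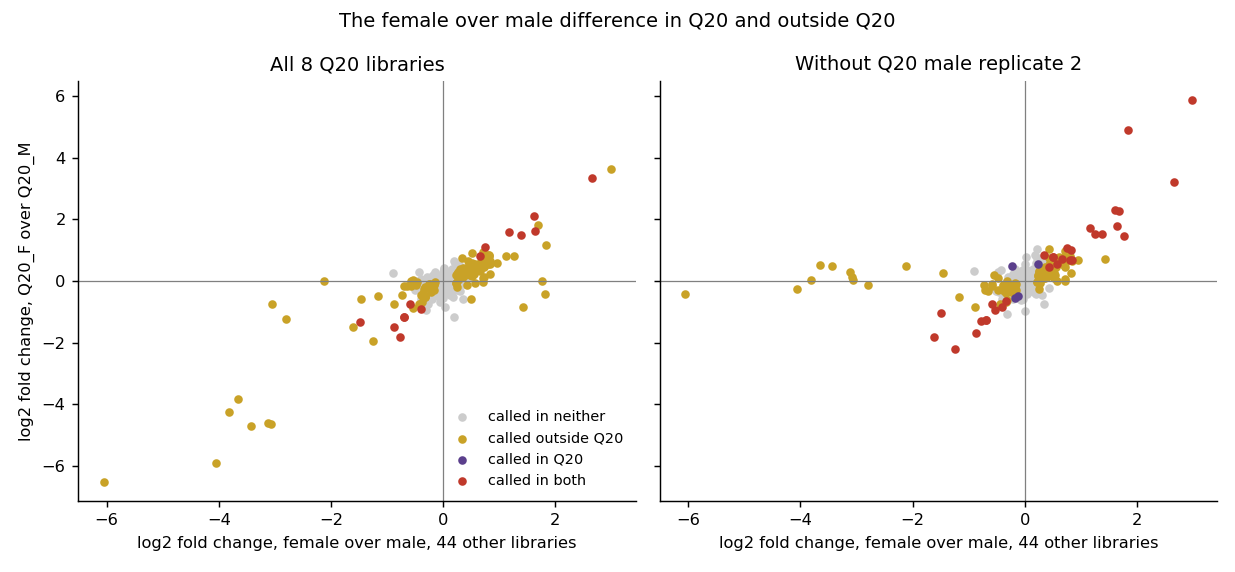
The log2 fold change of females over males in Q20 (vertical) against that in the 44 other libraries (horizontal), each point a precursor, with all Q20 libraries (left) and without Q20 male replicate 2 (right). Points called in both fall in the upper right and lower left of each panel. The points with large negative values on both axes on the left lie near 0 in Q20 on the right.

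Each of the 4 named calls of the 8-library fit had the same direction outside Q20. MI0014039 ran from 4.37 to 22.9 CPM in the other females (median 14.6, n = 21), against 1.49 to 17.3 CPM in the other males (median 5.31, n = 23), with a log2 fold change of 1.17 (edgeR adjusted p = 0.000196). Within genotypes, all females exceeded all males in Q20, Q92 and Q175, and the female mean was higher in 6 of 7 genotypes, with Q140 the exception. MI0000246 ran from 475 to 1882 CPM in the other females (median 1090.1), against 334 to 1503 CPM in the other males (median 602), with a log2 fold change of 0.75 (edgeR adjusted p = 0.000118). Its sexes did not overlap in Q20, Q92, Q175 and WT, and again Q140 alone had the higher male mean.

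MI0014103 ran from 2976 to 7915 CPM in the other females (median 5058), against 2393 to 15204 CPM in the other males (median 7915), with a log2 fold change of -0.78 (edgeR adjusted p = 6.37e-06). The female mean was the lower in all 7 genotypes, without overlap in Q20, Q80 and WT. MI0000168 ran from 52.9 to 160.1 CPM in the other females (median 81.8), against 40.0 to 295 CPM in the other males (median 146), with a log2 fold change of -0.87 (edgeR adjusted p = 8.87e-06). Its female mean was also lower in all 7 genotypes, without overlap in Q20, Q80, Q111, Q175 and WT.

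The 4 precursors named from the fit without male replicate 2 were called outside Q20 as well. MI0000553 had a log2 fold change of 2.98 there (edgeR adjusted p = 7.12e-06), and its female mean was higher in 7 of 7 genotypes. In WT it averaged 1067 ± 56.3 CPM in females (SD, n = 3) and 72.5 ± 30.9 CPM in males (SD, n = 4). MI0001151 had 1.83 (edgeR adjusted p = 0.00196), with the female mean higher in 6 of 7 genotypes and the male mean higher in Q92, where the highest male held 1681 CPM. MI0000817 had -1.25 (edgeR adjusted p = 1.92e-06) and MI0000974 had -1.61 (edgeR adjusted p = 8.35e-06), both with the female mean lower in all 7 genotypes.

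**Figure D5:**
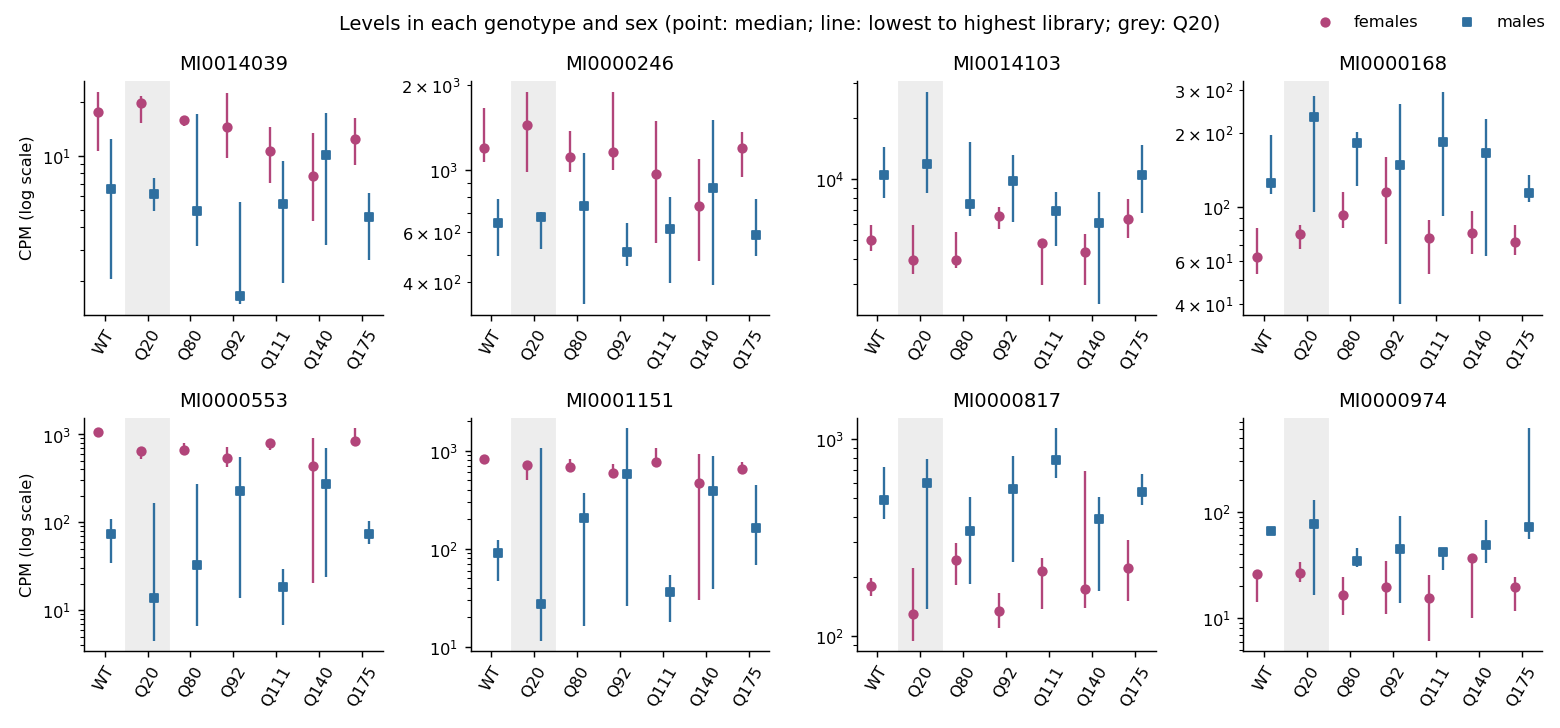
CPM (log scale) of the 8 precursors in the females (circles, left of each pair) and males (squares) of 7 genotypes in order of repeat length after WT, as the median with a line from the lowest to the highest library; Q20 is shaded grey. In Q140, with Q140_F replicate 2 kept among its 3 females, the sexes overlap for all 8 precursors.

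Whether the female over male difference was of another size in Q20 than elsewhere was tested in a fit of all 52 libraries with 14 group means. Against the mean of the other 6 genotypes, edgeR called 0 of 391 precursors (0.0%), with 9 at an unadjusted p under 0.05. DESeq2 called 0 with 9, and limma on log2(RPKM + 1) called 0 with 10. About 1 in 20 precursors would pass that unadjusted threshold if nothing differed, so such counts here and below are a description only. The edgeR count at an unadjusted p under 0.05 was 24 of 390 without Q20_M replicate 2, 14, 14 and 17 without Q20_M replicates 1, 3 and 4, and 15 without Q140_F replicate 2, with 0 calls each time, and ran from 5 to 24 over the 52 single omissions. By their column headers, the WT and Q175 libraries carry another series of library numbers than all others, and the labels do not say what it marks. Genotype and number series cannot be told apart in the contrast with WT. Against WT alone, edgeR again called 0 of 391 (0.0%), with 9 at an unadjusted p under 0.05, DESeq2 called 0 with 12 and limma 0 with 5. The edgeR count at an unadjusted p under 0.05 was 5 without Q20_M replicate 2 and ran from 3 to 13 over the single omissions, again with 0 calls. A p that misses the threshold does not show that the differences were equal, and with 4 libraries per sex in Q20 the intervals were wide.

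The lowest p against the other genotypes belonged to MI0014103, whose log2 fold change of females over males in Q20 minus that elsewhere was -1.01 (SE 0.36, edgeR adjusted p = 0.9999). Male replicate 2 held its highest value. The lowest p against WT belonged to a precursor with 3.74 to 6.14 CPM in Q20 females, against 4.65 to 8.32 CPM in 3 Q20 males and 1166 CPM in male replicate 2. Its difference from WT was -6.07 (SE 2.21, edgeR adjusted p = 0.9999), and its log2 fold change within Q20 was -5.89 with that library and -0.27 without it (edgeR adjusted p = 0.274 and 0.657). High male values of this precursor were not particular to Q20. Males outside Q20 had a median of 47.5 CPM and a highest value of 3246 CPM, while WT males held 0.741 to 5.58 CPM. Its log2 fold change outside Q20 was -4.06 (edgeR adjusted p = 0.000159).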

How the data were processed

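Small RNA was sequenced from gonadal white fat. Per the labels' protocols, a miRNeasy kit gave total RNA from frozen tissue, an enriched subfraction of which went into Illumina libraries. The submitters' processing notes name CASAVA 1.8.2. The aligner, build and counter were not given in the sources used here. Estimated counts were deposited by the authors, with 89.1% of all values, zeros included, whole within 1e-04. The share among values above 0 was not taken and is lower. The values were rounded for edgeR and DESeq2, which had been planned for whole counts. RPKM values were also deposited by the authors for the same libraries, and precursor lengths were recovered from the ratio of both tables (263 precursors, 49 to 147 nucleotides). Columns were matched to samples by library identifier.

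The members of the comparison, the named-precursor rule and the lists were chosen with earlier results of these data known. The 19 lists (193 miRNA names) were matched to 0 precursors and not tested. Identical values in every library were found for 68 precursors, in 26 sets.

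Tests used edgeR 4.0.16 (robust quasi-likelihood, TMM) in R 4.3.3, with Benjamini-Hochberg adjustment, a threshold of 0.05 and at least 10 counts in at least 4 libraries fitted. Named precursors are the 2 largest changes each way among calls with a mean of at least 10 CPM. CPM within Q20 was scaled over its 8 libraries and CPM by genotype over all 52. Per degree of freedom, chi-square was 137 for the closest pair of Q20 libraries of a sex, and no duplicate was found. The fit was tested on simulated data. Alternatives were DESeq2 1.42.0, its size factors, other filters, limma 3.58.1 on log2(RPKM + 1 or 10), removal of the 5 most abundant precursors, a replicate block, the lane and single omissions. Those without Q20_M replicate 2 beyond its single omission, and lane 3 alone, were chosen after seeing the data.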

Additional observations from a re-analysis of the deposited data

Results flagged for a closer look

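In 24 gap tests of the 4 libraries of a Q20 sex at the 95% level, 4 were past the limit, all 4 in Q20_M replicate 2. Chance gives about 1 in 20 for groups not picked by their values, but 3 of these 4 precursors were picked through that library, so the number of flags is a description only. It held 493 CPM of MI0000246, below the other 3 males. It held 155 CPM of MI0000553, 1006 CPM of MI0001151 and 1166 CPM of the precursor with the lowest p against WT, each far above the other 3 males. All values of the Q20 females lay within the limit.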

How the results depend on the processing

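The count of 14 calls in Q20 was 24 with DESeq2 and 2 with a replicate block (1 higher, 1 lower), whose numbers did not pair the libraries: same-numbered females and males deviated with correlations of -0.241 to 0.0003. Leaving out a library in turn gave 0 to 35 calls, with 7 and 6 without female replicates 1 and 2, 0 without female replicate 3 or 4, 35 without male replicate 2, and 12, 4 and 8 without male replicates 1, 3 and 4. Without male replicate 2, DESeq2 gave 44, limma on log2(RPKM + 1) 36 (25 higher, 11 lower) and the replicate block 18. The cause of these changes was not tested. The other alternatives gave 10 to 18 calls, with the lane as a covariate at 10 and the fit over all 52 libraries at 15. On limma with log2(RPKM + 10) the split was 13 higher and 2 lower. No named precursor changed sign in any of 23 alternatives, with calls kept in 18 for MI0014039, 17 for MI0000246, 15 for MI0014103 and 14 for MI0000168. Outside Q20 the count of 178 ran from 133 (at least 50 counts) to 202, and the replicate block gave 177. Both tests of the difference between Q20 and the rest gave 0 calls in all 52 single omissions. Depth limits precursors near or under 3 counts, which is 0.630 to 1.04 CPM in the Q20 libraries.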
